A study of Mus musculus with 14 samples.

Results

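The comparison set the 2 parotid gland libraries against the 2 stomach libraries, 4 of the 14 libraries of a mouse tissue series. These 4 were chosen by their titles. The series counted short sequence tags from total RNA of C57BL6 mice in 7 tissues, with 1 female and 1 male library per tissue. No mutant allele, treatment or age was given in the labels, nor how many animals were behind a library. Each tag was 20 bases long and began at a DpnII site (GATC) of a cDNA, which was captured with the enzyme MmeI. The counts of tags assigned to a gene in the sense direction were summed per gene, and a level is given as CPM, the gene's share of these counts in the library scaled to 1000000. The 2 libraries of a tissue differed in sex, so the p-values measure the spread between libraries, in which sex, animal and preparation cannot be told apart.

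The parotid gland is a serous salivary gland. Its acinar cells make enzymes and other proteins of saliva on the rough endoplasmic reticulum, store them in granules and release them with a chloride-driven flow of fluid when nerves stimulate the gland. The stomach of the mouse has a glandular part, lined by mucous cells and dipping into glands of acid-secreting parietal cells, pepsinogen-making chief cells and endocrine cells, and a forestomach lined by a keratinised squamous epithelium, all wrapped in smooth muscle. Both are digestive secretory organs, but neither whole tissue is 1 cell type, and in bulk RNA fewer cells of a type and less RNA per cell cannot be told apart.

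The leading tags of some abundant genes of either side are shown first, because the counts of each rest almost wholly on 1 such sequence. They are a selection: other stomach genes, such as Sprr2a1/Sprr2b and Pla2g1b, had higher levels than Ghrl and are given below. The capitals mark the DpnII site.
Bpifa2: GATCtgacggtgcccttggc
Smr3a: GATCctagaggaccattccc
Amy1: GATCtgtgaacatcgatggc
Chia1: GATCagggaaaatttcctct
Pgc: GATCctcggggatgtcttcc
Clps: GATCacgcagttagctgggt
Gkn2: GATCctgggagtctccatct
Ghrl: GATCaggttcaatgctccct
The Bpifa2 tag was counted 1010368 times in the female and 933427 times in the male parotid library, and 13 and 9 times in the stomach libraries. The Pgc tag was counted 186301 times in the female and 432245 times in the male stomach library and in neither parotid library. The Chia1 tag was the exception among them, with 129935 and 114405 counts in the parotid libraries and 25121 and 27191 in the stomach libraries.

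The 4 libraries held 2194028 to 3834568 tag counts, of which 73.5% to 90.3% were assigned to genes in the sense direction. The parotid libraries were dominated by few genes: 2 genes made up 50% of the gene counts in each of them, against 24 genes in the female and 13 in the male stomach library. Over genes with at least 50 counts in both libraries of a tissue, 11 of 2140 (0.514%) differed at least 2-fold between the parotid libraries and 861 of 2416 (35.6%) between the stomach libraries. The female stomach library also held 18.6% of its counts in unassigned tags, against 3.69% to 4.18% in the other three. Exact (Clopper-Pearson) 95% intervals of these shares of counts reach at most 0.0707 percentage points to either side and cover counting error only. A count of 0 allows a level of up to 0.867 to 1.56 CPM, depending on the library.

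Of 9366 genes with enough counts to be tested, 855 (9.13%) differed between the tissues in the edgeR quasi-likelihood fit, where a call needed a fold of 2 or more and an adjusted p below 0.05. Parotid gland was higher for 271 (2.89% of those tested) and stomach for 584 (6.24%). The levels of the 2 tissues did not overlap for any of the 855 called genes. Without regard to calls, both parotid libraries lay above both stomach libraries in CPM for 5.99% of the genes tested, and both stomach libraries above both parotid libraries for 68.4%. All 855 called genes also went the same way in the female and in the male pair. That follows from the lack of overlap and is no further check. In stomach, 250 of the 584 genes had no count in either parotid library, and in parotid 30 of the 271 had none in either stomach library. Fitted folds are scaled by the trimmed mean of M-values (TMM), which raises every parotid to stomach ratio 2.43-fold (1.28 on the log2 scale) over the ratio of CPM values. The median log2 fold of all genes tested was -0.12 with this scaling and -1.40 with library totals. With library totals the parotid share of the calls fell from 31.7% to 6.45% (171 against 2479 genes). Without the female or the male parotid library, 123 and 120 genes were called higher in parotid and 266 and 261 higher in stomach. Without the female stomach library these counts were 2150 and 2367, and without the male 1883 and 2273.

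**Figure D1:**
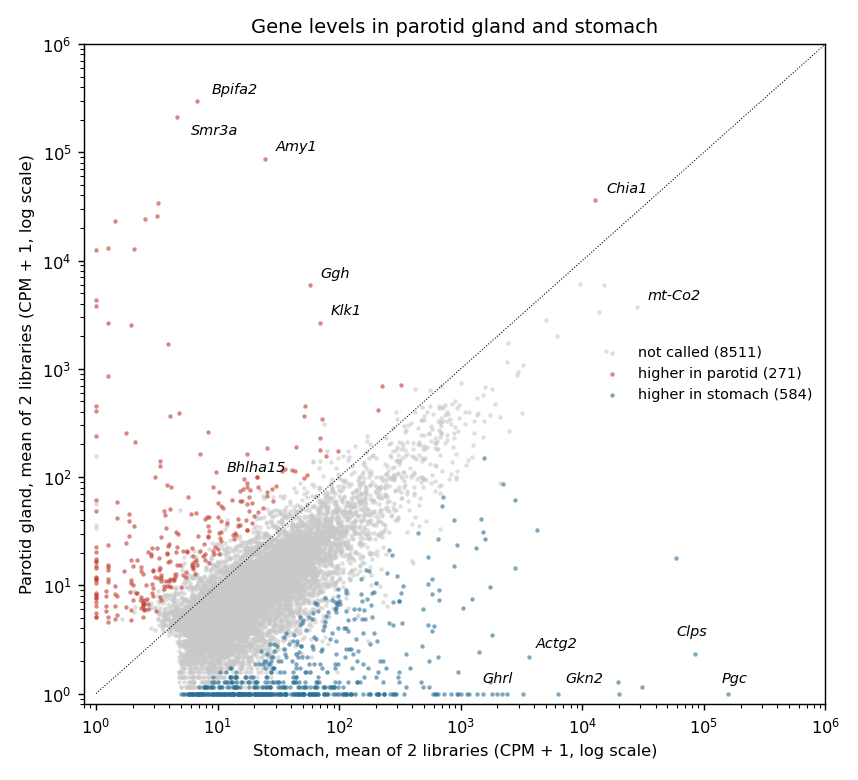
Mean level of each of the 9366 tested genes in the 2 stomach libraries (horizontal axis, CPM + 1, log scale) and the 2 parotid libraries (vertical axis, CPM + 1, log scale). Red points are the 271 genes called higher in parotid, blue points the 584 called higher in stomach, grey points the others, and the dotted line marks equal CPM. Bpifa2, Smr3a and Amy1 lie far above the line, Pgc, Clps and Gkn2 at the lower right, and Chia1 is at the upper right, high in both tissues.

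Saliva proteins made up the parotid side. Of 19 tested genes of a list of parotid secretory proteins, 17 were higher in parotid and none higher in stomach, with a median log2 fold of 12.71, or 9.61 with genes at 0 in a tissue set to their bound. The list's members summed to 711371 and 703380 CPM in the female and male parotid libraries and to 11435 and 14737 CPM in the stomach libraries, where nearly all of the sum was Chia1. Bpifa2, the parotid secretory protein that binds bacterial lipids, stood at 310299 and 284888 CPM in parotid and at 6.93 and 4.68 CPM in stomach. Its fitted log2 fold was 16.88 ± 0.84 (SE, 2 against 2 libraries, adjusted p = 0.0034). Smr3a, a small androgen-regulated salivary protein, reached 208292 and 217413 CPM against 3.03 and 4.16 CPM, a log2 fold of 17.11 ± 0.79 (adjusted p = 0.0034). For both genes the gap between the 2 parotid libraries was far smaller than the gap between the tissues.

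Amy1, the salivary amylase that cuts starch, was at 87616 and 86955 CPM in parotid and 24.7 and 22.4 CPM in stomach (log2 fold 13.12 ± 0.69, adjusted p = 0.0034). Car6, the carbonic anhydrase secreted into saliva, was at 24374 and 27313 CPM in parotid, at 4.33 CPM in the female stomach library and not detected in the male. Pip, the prolactin-induced protein, was at 20606 and 27657 CPM in parotid and showed the same stomach pattern, at 3.03 CPM and not detected. The stomach levels of both genes thus rested on the female library, from a few counts. Dnase1, a secreted nuclease, was at 11746 and 14106 CPM in parotid, and only 1 count of it was found in stomach, in the male library. Cst10, a cystatin type protease inhibitor, had 12515 and 12499 CPM in parotid and no count in stomach. Its level was at least 21238-fold higher in parotid against a floor of 3 counts per stomach library.

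Proline-rich protein Prb1 (4242 and 4475 CPM) and Dcpp, a secreted gland protein (3194 and 4368 CPM), likewise had no count in stomach; their family copies are nearly identical, so the split within the family is uncertain. Lpo, the salivary peroxidase that makes antibacterial thiocyanate products, was at 772 and 947 CPM in parotid, with 1 count in stomach. Lyz2, a lysozyme shared with macrophages, was not called, at 95.9 and 97.4 CPM in parotid and 231 and 88.4 CPM in stomach. Bpifb1, a relative of Bpifa2, was not called either, at 4.09 and 0.289 CPM in parotid against 70.6 and 27 CPM in stomach. Smgc, a mucin-like gland protein, had 186 CPM in the male parotid library and no count in the other three, and was not tested.

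Ggh, the gamma-glutamyl hydrolase of folate metabolism, was at 6105 and 5759 CPM in parotid and 68.9 and 43.7 CPM in stomach (log2 fold 7.97 ± 0.63, adjusted p = 0.00595). Agt, the precursor of angiotensin, was at 231 and 288 CPM in parotid and 6.50 and 8.32 CPM in stomach (log2 fold 6.40 ± 0.55, adjusted p = 0.00632). Both tissues were detected in every library for these 2 genes, so their folds do not rest on zeros.

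Kallikreins, a family of serine proteases of which salivary ducts release only some, split between the tissues by member. Klk1, the kinin-releasing member, was higher in parotid, at 2406 and 2931 CPM against 102 and 33.8 CPM (log2 fold 6.53 ± 0.80, adjusted p = 0.0134). Klk5 was found only in the stomach libraries among these 4, at 28.2 and 28.6 CPM, at least 13.5-fold higher. Klk8 was higher in stomach too, at 46.4 and 39.5 CPM against 0.585 and 0.289 CPM; it lost its call without the male parotid library. Over the list of kallikreins and duct genes, 3 of 13 tested members were higher in parotid and 5 higher in stomach, with a median log2 fold of -0.52. Krt19, a duct keratin in the same list, was a stomach gene here, at 2414 and 3134 CPM against 18.4 and 8.38 CPM (log2 fold -6.41 ± 0.66, adjusted p = 0.00936).

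The genes of acinar fluid secretion moved less. Of 24 tested members, 8 were higher in parotid and 1 in stomach, and the median log2 fold was 1.53 with TMM and 0.23 with library totals (5 and 4 called). Fewer were called in parotid without either parotid library. More were called without either stomach library, as over all genes tested, because the closely matching parotid pair then sets the spread. Kcnn4, the calcium-activated potassium channel that sustains secretion, was at 154 and 167 CPM in parotid and 13.4 and 19.8 CPM in stomach (log2 fold 4.56 ± 0.51, adjusted p = 0.0107). Fxyd2, a regulator of the sodium pump, was at 204 and 217 CPM in parotid, at 2.17 CPM in the female stomach library and not detected in the male. Adrb1, the beta 1 adrenergic receptor through which nerves trigger protein release, was low but steady in parotid, at 12.9 and 13 CPM, with 1 count in stomach. P2rx4, an ATP-gated channel, was at 34.8 and 37.9 CPM against 7.80 and 14.0 CPM. It lost its call without either parotid library, and with library totals (log2 fold 1.72, adjusted p = 0.0591). Gnas, the stimulatory G protein that couples such receptors to cyclic AMP, was at 427 and 458 CPM in parotid and 483 and 476 CPM in stomach, and Atp1b1, a sodium pump subunit, at 451 and 462 CPM against 426 and 693 CPM; neither was called.

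Transcription factors of salivary and acinar cells leaned to parotid, 8 of 20 tested being higher there and none higher in stomach (median log2 fold 2.32, and 1.01 with library totals). As over all genes tested, fewer were called in parotid without either parotid library and more without either stomach library. Bhlha15, the factor that builds the secretory apparatus of acinar and chief cells, was at 103 and 116 CPM in parotid and 4.77 and 12.5 CPM in stomach (log2 fold 4.97 ± 0.64, adjusted p = 0.0152). Sox10, needed by salivary progenitors and by glia, was at 43.3 and 52 CPM against 2.60 in each stomach library (log2 fold 5.43 ± 0.57, adjusted p = 0.00936). Foxc1 (142 and 181 CPM against 10.8 and 1.56) and Etv1 (32.2 and 33.8 against 3.90 and 1.56), both developmental regulators, were higher in parotid as well. Pitx1, a homeobox factor of the oral region, was not called, at 25.1 and 35.5 CPM in parotid and 26.9 and 119 CPM in stomach.

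The machinery that exports proteins from the endoplasmic reticulum was present in both tissues. Of 50 tested members 4 were higher in parotid and 2 in stomach, beside 2.89% and 6.24% of all genes tested. The median log2 fold changed sign between scalings, 0.73 with TMM and -0.54 with library totals. Derl3, of protein disposal, was at 35.7 and 47.4 CPM in parotid and 3.03 and 12 CPM in stomach. Kdelr3, a receptor that returns escaped proteins, was at 17.8 and 24.3 CPM against 5.20 in each stomach library. The call of Derl3 was lost without the male parotid library and with library totals (adjusted p = 0.053), and that of Kdelr3 without either parotid library. Pdia2, a disulphide isomerase, was the reverse, at 305 and 248 CPM in stomach with no count in parotid, at least 132-fold higher. Xbp1, the transcription factor of the secretory stress response, was at 262 and 256 CPM in parotid and 519 and 175 CPM in stomach, so its stomach libraries lay on either side of parotid.

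The zymogen granule list ran the other way, with 1 of 21 tested members higher in parotid and 5 higher in stomach (median log2 fold -1.75). The 5 were Clps, Gp2, Sycn, Zg16 and Muc1, of which all but Muc1 are known as pancreatic granule genes. Gp2, Sycn and Zg16 stood at 1.20%, 0.491% and 1.70% of their pancreas level in stomach. They are among the pancreatic genes set against pancreas with Clps below, and the part of pancreatic RNA in these calls was not tested. The calls of Gp2 and Sycn were lost without either parotid library. Rab3d, a GTPase on secretory granules, was at 36.2 and 43.6 CPM in parotid and 55.9 and 96.7 CPM in stomach, and Vamp8, a granule fusion protein, at 49.4 and 38.1 CPM against 83.2 and 259.6 CPM; neither was called. Muc1, a membrane mucin at the lumen, was at 96.2 and 356 CPM in stomach and had 2 counts in parotid.

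Genes for moving antibodies into secretions were parotid genes. Pigr, the receptor that carries dimeric antibody across the epithelium, was at 128 and 149 CPM in parotid and 2.17 and 2.60 CPM in stomach (log2 fold 7.10 ± 0.58, adjusted p = 0.00595). Ccl28, the chemokine that draws antibody-secreting cells to mucosae, was at 52.3 and 47.4 CPM against 3.03 and 3.12 CPM (log2 fold 5.26 ± 0.55, adjusted p = 0.00947). Only 3 members of that list were tested, of which 2 were called; the third, Ighg, was at 9.06 and 16.5 CPM in parotid and 7.80 and 13.5 CPM in stomach. In the broader list of mucosal defence, 6 of 17 tested members were higher in parotid and 7 higher in stomach, the second set led by mucins and trefoil factors.

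**Figure D2:**
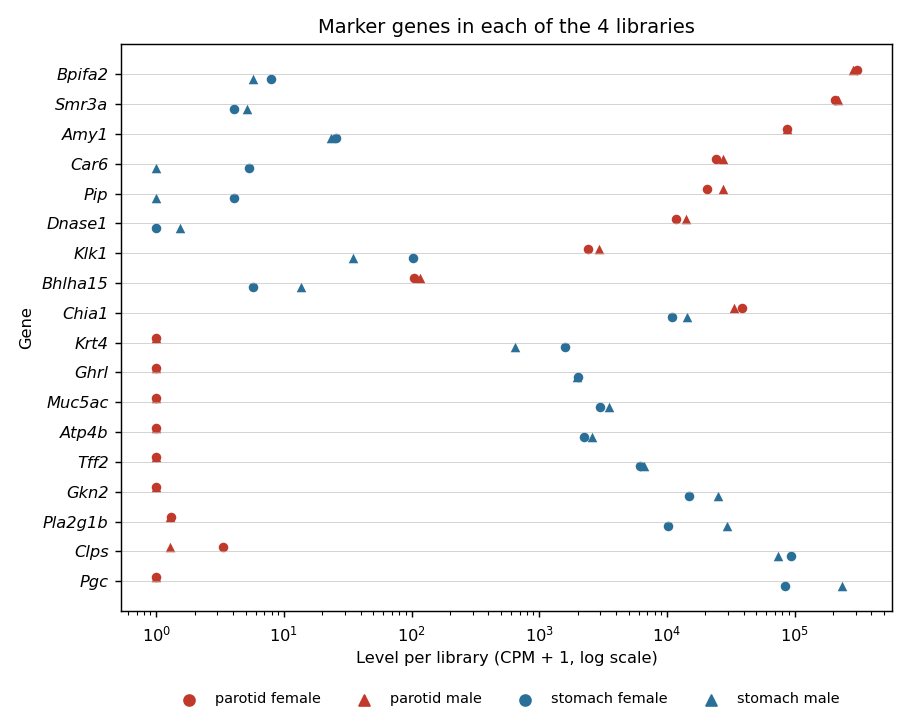
Level of marker genes in each of the 4 libraries (horizontal axis, CPM + 1, log scale; red parotid, blue stomach, circles female, triangles male). Salivary genes from Bpifa2 to Bhlha15 lie to the right in parotid and gastric genes from Krt4 to Pgc to the right in stomach, while Chia1 is above 11000 CPM in all 4 libraries.

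On the stomach side the chief cell gene Pgc, which encodes the zymogen progastricsin, came first. It was at 84495 CPM in the female and 234060 CPM in the male stomach library, where it was the most abundant gene, and had no count in parotid. Its level was at least 73777-fold higher in stomach (adjusted p = 0.00601), although the male stomach library was well above the female. Cblif, the gastric intrinsic factor that binds cobalamin, was at 931 and 937 CPM in stomach and not detected in parotid, at least 443-fold higher. Dpcr1, a mucin-like protein, was at 621 and 2982 CPM in stomach and not detected in parotid. Gkn3, a gastrokine, was at 522 and 578 CPM in stomach with 1 count in parotid. The chief cell list also holds mucin and gastrokine genes (Muc6, Dpcr1, Gkn3), so it does not read chief cells alone. It holds Clps, called higher in stomach, and Rnase1, not called, as well, both among the pancreatic genes set against pancreas below. Of its 11 tested members, 7 were higher in stomach and 2 higher in parotid (median log2 fold -9.67, -6.31 at the bound). The 2 parotid ones, Bhlha15 and Chia1, are shared by serous acinar cells. Ctse, cathepsin E, was at 1614 and 865 CPM against 7.02 and 6.07 CPM (log2 fold -6.31 ± 0.65, adjusted p = 0.00936).

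Clps, known as the pancreatic colipase that anchors lipase to fat droplets, was among the most abundant stomach genes, at 93379 and 74396 CPM against 2.34 and 0.289 CPM in parotid (log2 fold -14.67 ± 1.20, adjusted p = 0.00595). Pla2g1b, the digestive phospholipase A2 that cleaves phospholipids, was at 10214 and 29438 CPM in stomach and had 1 count in each parotid library. Pancreatic genes as a list, most of them enzymes, were higher in stomach for 21 of 22 tested members (median log2 fold -6.49), and fewer without either parotid library. They included Amy2, the pancreatic amylase (2136 and 998 CPM against 26 in each parotid library, its call lost without either of them), and Prss2, a trypsinogen (737 and 473 CPM against 4.39 and 2.02). The list summed to 109999 and 109662 CPM in the stomach libraries and to 129 and 119 CPM in parotid, Clps and Pla2g1b holding most of it.

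The series' 2 pancreas libraries gave a reference for these genes. Clps was at 35112 and 32100 CPM in pancreas, so its mean stomach level was 249.6% of its pancreas level. Pla2g1b was at 613 and 575 CPM in pancreas and at 3336% of that level in stomach. Over the 22 pancreatic genes with at least 10 counts in both stomach libraries, most of them enzymes, the median stomach level was 1.17% of the pancreas level. The lowest was 0.450%, for Ctrb1, chymotrypsinogen. Leaving out Clps and Pla2g1b, the highest was 7.23%, for Pnliprp2, a lipase. The part that pancreatic RNA in the stomach samples has in the low levels of the other genes was not tested. Clps and Pla2g1b lay above their own pancreas level in both stomach libraries.

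**Figure D3:**
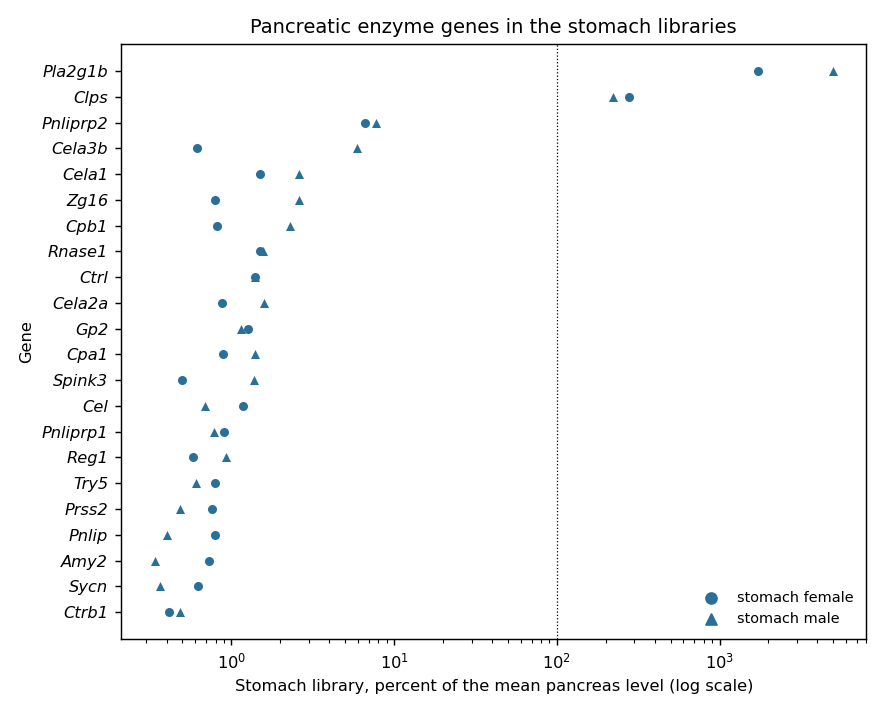
Level of 22 pancreatic genes, most of them enzymes, in the female (circle) and male (triangle) stomach library. Values are percent of the gene's mean level in the 2 pancreas libraries (horizontal axis, log scale, dotted line at 100%). Clps and Pla2g1b lie to the right of the line in both libraries and the other 20 to the left, none with a mean above 7.23%.

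A gene cluster titled caspase 6 in the file was the stomach gene with the next largest level after Pgc and Clps. It was at 49302 and 68801 CPM in stomach and 18.1 and 15.9 CPM in parotid (log2 fold -10.47 ± 0.63, adjusted p = 0.00458). Nearly all of its stomach counts came from 1 tag, other than the tag assigned through the caspase 6 reference transcript. The first tag below is the stomach one, and the second is the one of the reference transcript, printed so that the pair can be set apart.
stomach tag: GATCtggctggtgacacagt
reference tag: GATCaccagacagacaagct
The stomach tag was counted 113706 times in the female and 132105 times in the male stomach library and not at all in parotid. The reference tag was counted 62 and 55 times in parotid and 53 and 160 times in stomach. The large level is therefore that of the stomach tag, which the file assigns through an expressed sequence tag; which transcript it comes from was not settled.

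Parietal cells were read from the proton pump. Atp4a, its catalytic subunit, was at 1168 and 3238 CPM in stomach, and Atp4b, its partner subunit, at 2236 and 2564 CPM. Neither had a count in parotid, which made them at least 1020-fold and 1134-fold higher in stomach (adjusted p = 0.00936 and 0.00595). Clic6, a chloride channel protein, was at 434 and 657 CPM against 1.46 and 0.578 CPM (log2 fold -7.73 ± 0.72, adjusted p = 0.00741). Ezr, the ezrin that shapes the acid-secreting membrane, was at 482 and 591 CPM against 8.19 and 10.4 CPM, and lost its call without either parotid library. Ckmt1, a mitochondrial creatine kinase, was not called, at 410.4 and 570.1 CPM against 92.7 and 101 CPM. Of 26 tested parietal cell genes 15 were higher in stomach and none in parotid (median log2 fold -3.91, -3.60 at the bound). As over all genes tested, the stomach calls were fewer without either parotid library and more without either stomach library.

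Genes of the mucous cells of the gastric surface and neck were mostly stomach genes. Of 28 tested members 22 were higher in stomach and 1 in parotid (median log2 fold -8.49, -7.03 at the bound), and 18 of the 32 found had no count in parotid. Gkn2, a gastrokine made by surface cells, was at 14897 and 25326 CPM in stomach, at least 9416-fold higher. Tff2, the trefoil peptide of neck cells, was at 6149 and 6565 CPM, at least 3011-fold higher, and its 2 stomach libraries nearly coincided. Muc5ac, the gel-forming surface mucin, was at 3012 and 3493 CPM, at least 1537-fold higher. Tff1, the surface trefoil peptide, was at 752 and 542 CPM, and Cldn18, the stomach claudin, at 326 and 143 CPM. Anxa10, an annexin of gastric epithelium, was at 1187 and 475 CPM. None of these 6 genes had a count in parotid.

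Gastric endocrine genes followed. Ghrl, which encodes the appetite hormone ghrelin, was at 2015 and 1969 CPM in stomach and not detected in parotid, at least 946-fold higher (adjusted p = 0.00595). Sst, somatostatin, was at 169.9 and 230.4 CPM and Chga, the granule protein chromogranin A, at 56.8 and 134 CPM, and neither had a count in parotid. In all, 10 of 12 tested members were higher in stomach and 1 in parotid (median log2 fold -6.73, -2.97 at the bound). Only 4 were called in stomach without either parotid library. The parotid one was Acpp, a prostatic type acid phosphatase, at 18.1 and 19.6 CPM against 3.03 and 2.60 CPM (log2 fold 3.98 ± 0.55, adjusted p = 0.0161).

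The squamous forestomach was the largest single set of called genes among the lists. Of 37 tested members 30 were higher in stomach and none in parotid (median log2 fold -7.93, -5.57 at the bound). The members summed to 52569 CPM in the female and 26336 CPM in the male stomach library and to 105 and 112 CPM in parotid. A small proline-rich cluster, Sprr2a1/Sprr2b, which holds cornified envelope precursors, was at 44262 and 17457 CPM in stomach with 1 count in parotid; its copies are nearly identical and not told apart. Lor, the envelope protein loricrin, was at 808 and 1888 CPM, at least 627-fold higher. Krt4, an upper-layer keratin, was at 1597 and 648 CPM, at least 544-fold higher. Krt10, a keratin of cornifying layers, was at 2201 and 1268 CPM against 7.60 and 9.54 CPM (log2 fold -6.40 ± 0.63, adjusted p = 0.00867). Lgals7, the squamous galectin, was at 1177 and 902 CPM against 5.26 and 5.20 CPM (log2 fold -6.36 ± 0.56, adjusted p = 0.00665). Fabp5, the epidermal fatty acid binding protein, was at 7335 CPM in the female and 1175 CPM in the male stomach library and 34.8 and 27.5 CPM in parotid (log2 fold -5.87 ± 1.06, adjusted p = 0.0274). The stomach libraries stood apart from each other for Lor, Krt4 and Fabp5, but not in 1 direction.

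**Figure D4:**
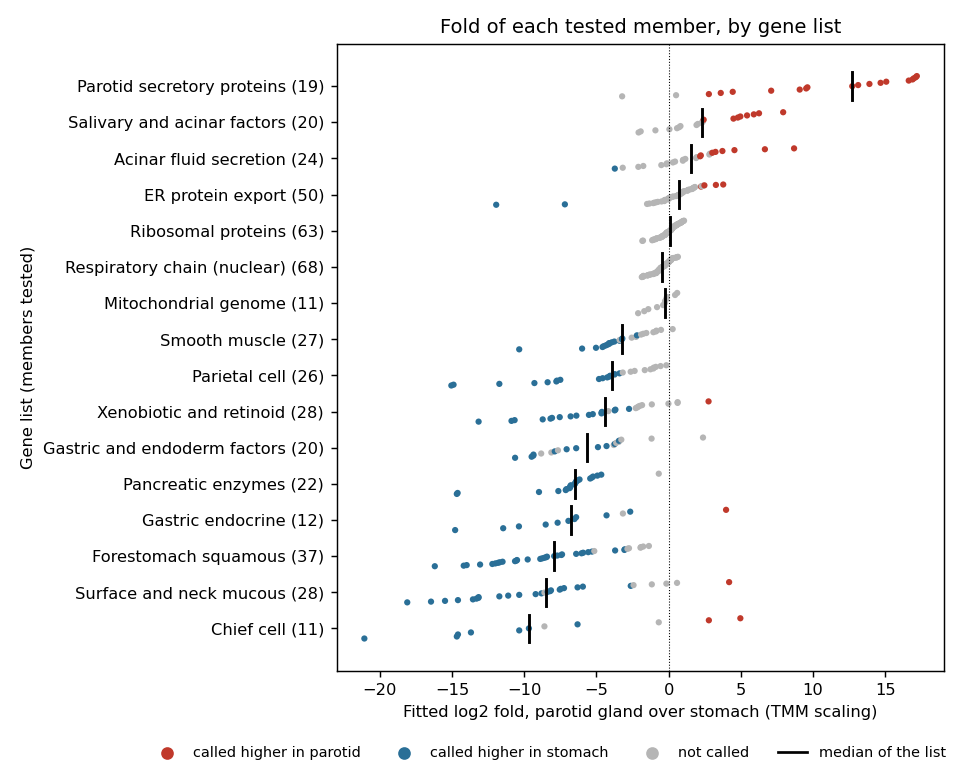
Fitted log2 fold of every tested member of 16 gene lists (horizontal axis, parotid over stomach, TMM scaling; number tested in brackets). Red points were called higher in parotid, blue points higher in stomach, and grey points were not called. Black bars are list medians, from 12.71 for parotid secretory proteins to -9.67 for the chief cell list. Folds of genes at 0 in a tissue depend on the prior count, so their order within a list has no meaning.

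Smooth muscle genes were stomach genes, 15 of 27 tested and none higher in parotid (median log2 fold -3.23). These calls rested on both parotid libraries: 1 and 2 were called without the female or the male. Acta2, smooth muscle actin, was at 2055 and 3491 CPM against 66.1 and 54.0 CPM (log2 fold -4.24 ± 0.51, adjusted p = 0.0134). Myh11, the smooth muscle myosin, was at 463 and 699 CPM against 11.4 and 9.54 CPM (log2 fold -4.50 ± 0.52, adjusted p = 0.0113). Both calls were lost without either parotid library, as were those of Tagln and Mylk. Actg2, the enteric actin, differed widely within stomach, at 6460 CPM in the female and 764 CPM in the male library, against 1.46 and 0.867 CPM in parotid (log2 fold -10.35 ± 1.47, adjusted p = 0.0163). Csrp1, another muscle protein, showed the same spread, at 3845 and 377 CPM against 87.4 and 85.8 CPM, and was not called (adjusted p = 0.124). Myoepithelial markers were higher in stomach for 6 of 8 tested members and summed to 141 and 130 CPM in parotid and 3930 and 6252 CPM in stomach. They share Acta2, Myh11, Mylk and Tpm2 with smooth muscle, and Krt5, Krt14 and Trp63 with the forestomach list.

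Tropomyosins were also read from different tags in the 2 tissues. Of 1433 genes with at least 50 counts in each library, 1273 had 1 leading tag in all 4 libraries, and 19 had 1 in both parotid and another in both stomach libraries. Tpm1 and Tpm2, which encode the alpha and beta chains that wind along actin, were among the 6 with the largest difference in share. Their leading tags are shown because the switch is between sequences of the same gene.
Tpm1 parotid tag: GATCagtaaccaaattggag
Tpm1 stomach tag: GATCtaggcactacatatgt
Tpm2 parotid tag: GATCtggaagatgaagtcta
Tpm2 stomach tag: GATCtggaagagactttggc
The Tpm1 parotid tag held 71.0% and 60.7% of the gene's counts in parotid (149 and 142 counts) and 1.49% and 2.75% in stomach (22 and 42 counts). The Tpm1 stomach tag held 19.5% and 29.1% in parotid and 83.1% and 90.3% in stomach (1226 and 1377 counts). For Tpm2 the parotid tag held 57.3% and 59.7% in parotid (71 and 86 counts) and 0.0522% and 2.91% in stomach (1 and 51 counts). The Tpm2 stomach tag held 38.7% and 35.4% in parotid and 97.7% and 90.5% in stomach (1872 and 1589 counts). Tpm1 and Tpm2 were picked by this difference in share. The lack of overlap between tissues for the 4 tags therefore carries no test. Exact 95% intervals of the shares reach at most 9.02 percentage points to either side and cover counting error only. The genes differ in total as well, Tpm1 at 639.7 and 793 CPM against 61.4 and 67.6 CPM and Tpm2 at 830.4 and 913 CPM against 36.2 and 41.6 CPM, calls that were lost without either parotid library.

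**Figure D5:**
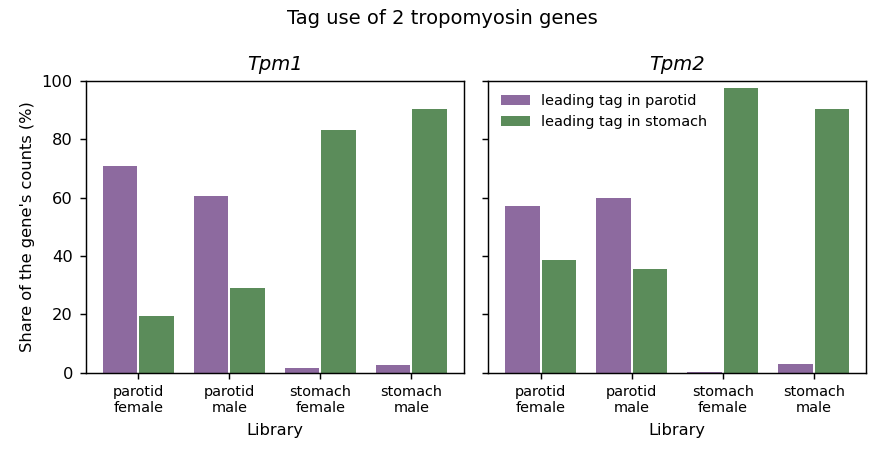
Share of the counts of Tpm1 (left) and Tpm2 (right) taken by the leading tag in parotid (purple) and the leading tag in stomach (green), in percent on the vertical axis, for each of the 4 libraries. The purple bars reach 57.3% to 71.0% in parotid and at most 2.91% in stomach, and the green bars 83.1% to 97.7% in stomach.

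A near-identical pair of tags was found on the parotid side too. A gene cluster titled as a serine protease in the file was at 14379 and 11000 CPM in parotid, with 4 counts in stomach, all in the male library. Its leading tag is set against the 2 tags of Dcpp, from which it differs by a base or 2.
protease-titled cluster: GATCccagccatgtgctcaa
Dcpp tag with 1 change: GATCccagccttgtgctcaa
Dcpp tag with 2 changes: GATCccagctttgtgctcaa
Counted from 1 at the G of the DpnII site, the first Dcpp tag has A11T and the second C10T and A11T relative to the tag of the protease-titled cluster. The tag of that cluster was counted 48552 and 37073 times in parotid, the first Dcpp tag 2342 and 4362 times and the second 8581 and 10756 times. It was thus lower in the male than in the female library while both Dcpp tags were higher, and no Dcpp tag had a count in stomach.

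Regional transcription factors of the gut marked stomach. Of 20 tested gastric and endoderm factors 11 were higher in stomach and none in parotid (median log2 fold -5.65, -3.54 at the bound), 7 without either parotid library. Barx1, the homeobox factor of the stomach wall, was at 104 and 121 CPM in stomach and not detected in parotid, at least 53.2-fold higher. Gata4, a factor of glandular stomach, was at 51.1 and 41.1 CPM and not detected in parotid, at least 22.0-fold higher. Foxa1, an endoderm pioneer factor, was at 147 and 39.5 CPM against 1.17 and 1.44 CPM, and Klf4, a factor of differentiated epithelium, at 166 and 153 CPM against 4.09 and 5.78 CPM. The last 2 calls were lost without either parotid library.

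Enzymes that handle foreign compounds and retinoids were higher in stomach for 17 of 28 tested members and in parotid for 1 (median log2 fold -4.40, -3.78 at the bound), with 9 and 8 stomach calls without the female or the male parotid library. Gsta4, which conjugates lipid aldehydes to glutathione, was at 1047 and 2544 CPM against 3.51 and 1.44 CPM (log2 fold -8.18 ± 0.84, adjusted p = 0.00936). Nqo1, a quinone reductase, was at 351 and 250.2 CPM with 3 counts in parotid. Adh7, the stomach alcohol dehydrogenase that also oxidises retinol, was at 136 and 131 CPM and not detected in parotid, at least 63.2-fold higher. Sult1c2, a sulfotransferase, was at 1066 and 183 CPM and not detected in parotid, at least 307-fold higher.

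Some protein families were split by member. Among carbonic anhydrases, which hydrate carbon dioxide, Car6 was the parotid member and Car9, a membrane form, the stomach one, at 60.2 and 136 CPM with 2 counts in parotid. Car2, the cytosolic form, was at 1078 and 276 CPM in stomach and 32.4 and 31.2 CPM in parotid and was not called (adjusted p = 0.0597); 6 of 8 tested members were not called. Of the cobalamin carriers, Tcn2, transcobalamin 2, was higher in parotid at 389.7 and 511 CPM against 26 and 77.0 CPM (log2 fold 4.44 ± 0.67, adjusted p = 0.0186), while Cblif was a stomach gene. Iron and cobalamin genes as a list gave 3 calls in parotid and 1 in stomach of 12 tested. Lcn2, an iron-siderophore binder, was among the parotid ones, at 19.6 and 12.7 CPM against 1.30 and 1.04 CPM. Among tight junction genes Cldn3, a claudin, was higher in parotid (8.19 and 12.7 CPM, 1 count in stomach) and Cldn18 in stomach, with 2 calls in either direction of 15 tested.

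Chia1, the acidic chitinase that digests chitin, was, unlike Bpifa2 and Pgc, high in both tissues. It was at 38658 and 33585 CPM in parotid and 11050 and 14469 CPM in stomach. The 4 values did not overlap between tissues, and parotid was higher by a log2 fold of 2.79 ± 0.45 (adjusted p = 0.0216). With library totals the log2 fold was 1.49 and not called (adjusted p = 0.0595), and the call was also lost without either parotid library. In the other 10 libraries of the series Chia1 reached at most 7.23 CPM.

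Shared cell functions gave no calls with TMM scaling, which does not show that their levels are equal. None of 68 tested nuclear genes of the respiratory chain, 11 mitochondrial genome genes, 39 other genes of mitochondrial energy metabolism, 63 ribosomal protein genes or 19 proliferation genes was called by edgeR. Their median log2 folds were -0.44, -0.26, -0.01, 0.08 and -0.90, near the -0.12 of all genes tested except the last. With library totals the medians were -1.73, -1.59, -1.33, -1.23 and -2.14, beside -1.40 for all genes tested, so the ribosomal direction depends on the scaling. That scaling called 22, 2, 4, 8 and 9 of these genes, all higher in stomach. Over all 9366 genes tested it called 2479 higher in stomach and 171 higher in parotid, so the direction is not particular to these lists. Mitochondrial transcripts summed to 25191 and 24863 CPM in parotid and to 118790 CPM in the female and 44407 CPM in the male stomach library. mt-Co2, a cytochrome oxidase subunit, was at 46110 CPM in the female and 10098 CPM in the male stomach library and at 3524 and 3925 CPM in parotid, and was not called (adjusted p = 0.257). Eef1a1, a translation elongation factor, was at 1710 and 1734 CPM in parotid and 2318 and 2577 CPM in stomach. Glycolysis gave 1 call in each direction of 20 tested (median log2 fold -1.18), and collagens and matrix 3 in stomach of 37 (median -0.88). With TMM scaling, 2.89% of all genes tested were called in parotid and 6.24% in stomach.

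Some markers of other cells in the dissected tissues were called as well, and their part in the results was not tested. The counts below stand against 2.89% of all genes tested being higher in parotid and 6.24% higher in stomach. Adipose markers were higher in parotid for 4 of 11 tested and summed to 1548 and 832 CPM in parotid and 682 and 562 CPM in stomach. Among the 4, Fabp4 and Cidea lost their calls with library totals (edgeR adjusted p = 0.0584 and 0.0767) and without either parotid library. Cidea also lost its call without a filter, and Retn without the female parotid library. Ucp1, the heat-producing protein of brown fat, was at 131 and 36.7 CPM in parotid and 0.433 and 5.20 CPM in stomach (log2 fold 6.22 ± 1.19, adjusted p = 0.0315). Fast skeletal muscle markers were higher in parotid for 2 of 15 tested and summed to 360 and 469 CPM in parotid, and to 71.5 CPM in the female and 435 CPM in the male stomach library. Pvalb, the calcium buffer of fast fibres, was at 11.4 and 16.2 CPM in parotid with 1 count in stomach. Liver markers were higher in stomach for 3 of 10 tested, and summed to 2918 and 2237 CPM in stomach and 395 and 429 CPM in parotid. They were led by Apoa1, the main protein of high density lipoprotein, at 1735 ± 128 CPM (SD, 2 libraries) in stomach with 1 count in each parotid library. Alb, albumin, did not move with it, at 776 and 117 CPM in stomach and 186 and 215 CPM in parotid. None of 14 tested immune cell markers was called, and they summed to 490.0 and 539 CPM in parotid and 1118 and 605 CPM in stomach. Of blood and endothelial markers, 1 of 10 blood and endothelial markers was higher in parotid, Hbb-b2, a beta globin, at 456 and 383 CPM against 183 and 234 CPM. This call was lost with library totals (adjusted p = 0.123), without a filter and without either parotid library. Enteric neuron and glia markers gave 1 call in each direction of 8 tested. They summed to 57.0 and 61.0 CPM in parotid and 125 and 95.7 CPM in stomach. The one in stomach was Cartpt, a neuropeptide at 14.3 and 13.5 CPM with no count in parotid, whose call was lost without either parotid library, and the one in parotid was Sox10.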

How the data were processed

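RNA of each library was read as 20-base tags. The deposited files hold whole-number counts per tag with a gene cluster and a class code, per the labels and the file columns, with aligner, cluster release and genome build not given in the sources used here. Codes 1 to 4 were read as sense matches and 11 to 16 as reverse-strand matches, an assumption, since no legend came with the codes. The sense counts were added up by UniGene cluster or mitochondrial gene, giving 22221 genes in the series and 18098 with a count in the 4 libraries. Symbols came from the RefSeq accession of a cluster (12099 genes) or its title (1910); 8199 had none and held 5.00% of the gene counts in these 4 libraries. Sequence tags were printed from the files.

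The 4 libraries were fitted with edgeR 4.0.16 (R 4.3.3, quasi-likelihood, TMM scaling, filterByExpr, tissue only, 2 residual degrees of freedom), Benjamini-Hochberg adjusted over the 9366 tested genes. A call needed a fold of 2 or more and an adjusted p below 0.05. No set test was run; lists are given by counts and medians. A gene with no count in a tissue was given a bound at 3 counts per library. The script was tested on data simulated from the pooled levels and fitted spread of these libraries. It called 4 of 100 genes given a true log2 fold of 1.5 and 62 of 100 given 3. Of the unchanged genes, 1 was called. A gene that was not called may therefore still differ between the tissues. Alternatives used DESeq2 1.42.0, limma 3.58.1 and the settings in the closing section. Tables and figures used Python 3.11.15, pandas 2.3.3, numpy 2.4.6 and matplotlib 3.10.9.

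Named genes were the markers Bpifa2, Pgc and Chia1; in each direction the 12 called genes with the highest level and the 6 with the largest fold among genes with at least 10 counts in each library; the 10 genes highest in both tissues; from each list up to 6 members by level and up to 4 by adjusted p; and the 6 with the largest difference in leading tag share. Prb1, Dcpp, Smgc, Bpifb1 and Pnliprp2 fall outside that rule and, like the pancreas reference and the tags set beside each other, were chosen after their values were seen. The members and lists were chosen with earlier results of these data known.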

Additional observations from a re-analysis of the deposited data

Results flagged for a closer look

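Tags outside the gene counts carried signal in all 4 libraries. Reverse-strand tags made up 3.94% of counts in the female and 3.90% in the male parotid library, and 2.90% in the female and 4.19% in the male stomach library. The most abundant tag without an assignment made up 0.144% and 0.0942% of counts in the parotid libraries, 4.57% in the female stomach library and 0.556% in the male. These shares lie above the limit a count of 0 allows; the tags were not used in any comparison.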

How the results depend on the processing

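Of the 121 named genes called, none changed direction under any alternative. All 121 stayed called with DESeq2, DESeq2 size factors, limma voom, all 14 libraries and the sex block. They also did without tags holding a run of 10 or more A (added after seeing the data). Leaving out a stomach library lets the closely matching parotid pair set the spread, so calls kept there are no check. Library totals ended 8 calls, no filter 9, the most abundant tag only 4 and a stricter filter (mean of at least 20 counts) 4, with 6 more not tested. Leaving out the female or male parotid library ended 35 and 37; those folds then rest on 1 parotid library assumed to vary like the others.

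Genes higher in parotid and in stomach (271 and 584) became 171 and 2479 with library totals and 170 and 393 with the stricter filter. With sex as a replicate block the counts were 427 and 907; the labels give no replicate numbers, so this pairing is only of sex. With all 14 libraries in the fit they were 921 and 1528. Without 1 library, the parotid count ranged from 120 to 2150 and the stomach count from 261 to 2367. Both counts rose without a stomach library and fell without a parotid library. Genes near 3 counts per library cannot be told from 0 at this depth.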

Other observations

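Besides Chia1, a set of epithelial genes was high in both parotid gland and stomach and low elsewhere in the series. The rule, chosen after values were seen, asked for at least 20 CPM in each of the 4 libraries and at least 4 times the highest of the other 10 libraries, and 12 genes met it. Cxcl17, a mucosal chemokine, was at 25.7 and 22.8 CPM in parotid and 51.6 and 85.8 CPM in stomach and had no count in the other 10 libraries. Pitx1 had none there either. Lrrc26, an auxiliary subunit of a large potassium channel, was at 90.9 and 101 CPM in parotid and 59.8 and 41.6 CPM in stomach, and at most 0.377 CPM elsewhere. Fxyd3, a sodium pump regulator, was at 249 and 243 CPM against 740.2 and 201 CPM. Plet1, a surface protein of epithelial progenitors, was higher in parotid, at 185 and 190.4 CPM against 43.8 and 42.1 CPM (log2 fold 3.40, edgeR adjusted p = 0.0160). The others were Epcam, Oit1, Tmprss2, Krt23, Esrp1 and St14. Genes in this set were chosen by level, so their presence in both tissues carries no test.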
